A study of Mus musculus with 16 samples.

Results

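Gsdmc2, Gsdmc3 and Gsdmc4 of the gasdermin C cluster, and Gsdmd, are 4 gasdermin genes measured in mouse colon organoids. They are 4 of the 18850 genes on the array and 4 of the 11766 that were bright enough to test. The members were selected by measured values of these arrays, namely their difference between TNFa-treated and untreated organoids, so that difference is given as a description with no p-value. Organoids, which are epithelial cultures grown in a gel, were kept in every group in ENR, a medium named for its EGF, Noggin and R-spondin. The groups were WT, WT + TNFa, an ATF2/ATF7 mutant, and the mutant + TNFa, with 4 arrays each and 1 array per sample. TNFa, an inflammatory cytokine, was given at 50 ng/ml for 12 h. The protocol lists it for every sample, and only samples titled with TNFa were taken as treated. The labels contradict each other on the mutant: one gives a floxed Atf2 with an Atf7 knockout, another an Atf2 knockout with a floxed Atf7. Neither the driver of recombination, nor whether it took place, nor strain, sex, age or the number of organoid lines was stated. No label says that the 4 samples of a group came from separate animals or cultures, so every error and p-value here reflects only how these samples vary, which may be technical.

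Gasdermins are cytosolic proteins whose N-terminal domain forms pores in membranes once a protease cuts it free from the inhibitory C-terminal domain. GSDMD is cut by the inflammatory caspases, caspase-1 and the product of mouse Casp4, and its pores release IL-1 family cytokines and can end in lytic cell death. The gasdermin C genes of the mouse lie side by side in a tandem cluster, are expressed in intestinal epithelium, and are known to be raised by the type 2 cytokines IL-4 and IL-13 through STAT6.

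Gsdmc3 had an entry in the RefSeq promoter table (GRCm38.p6) and the other 3 members were not matched there. Its 250 bases before the annotated start, chr15:63878559-63878808 on the minus strand, are shown because the 3 gasdermin C members moved together. The capitals mark TATATAA, a match to the TATA box, which starts 29 bases before the gene's start.
Gsdmc3: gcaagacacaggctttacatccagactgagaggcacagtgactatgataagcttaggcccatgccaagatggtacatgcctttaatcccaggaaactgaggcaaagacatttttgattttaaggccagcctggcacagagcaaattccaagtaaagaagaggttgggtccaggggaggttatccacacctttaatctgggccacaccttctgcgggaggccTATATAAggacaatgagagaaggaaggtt
On the gene's strand, 2.05% of the 32851 promoter windows in the table held TATATAA, a motif chosen after the sequence was seen. On both strands the Gsdmc3 window held 0 matches to the ATF/CREB site TGACGTCA (in 1.55% of windows) or to TGACG (17.8%), which lies within it. It also held 0 matches to the AP-1 site TGANTCA (6.75%), the STAT site TTCNNNGAA (7.02%), the STAT6 consensus (5.85%), the ISRE core (2.98%) and the NF-kB consensus (7.25%). These letters are a description of the window, and a factor's binding was not measured.

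The deposited values are log2 signals after RMA, in which each unit is a doubling. One array stood apart: WT + TNFa array 2 correlated with the rest of its group at a mean r of 0.977, below the 0.986 to 0.988 of the other 3, and its median, 7.11 log2, was the highest, with the other 15 at 7.02 to 7.06. The label of colon epithelium was checked on marker genes. All 9 epithelial identity genes on the array were bright enough to test, with a summed signal of 14.9 to 15.1 log2 on every array, and 0 of 9 changed with TNFa in either genotype. Between genotypes 1 of 9 was called, beside 1.00% of all genes higher and 1.48% lower in the mutant without TNFa. This was Cdx2, at -0.52 log2 in the mutant without TNFa (limma, adjusted p = 0.0158) and -0.41 under TNFa (adjusted p = 0.0650). Ptprc, Cd3e, Cd79a, Csf1r and Itgam of immune cells, Pecam1, Cdh5 and Kdr of endothelium, and Col1a2, Col3a1, Dcn and Lum of fibroblasts were all too dim to test. The remaining fibroblast gene, Col1a1, was bright, with group means of 8.07 to 8.19 log2. Among 6 tuft cell markers, Dclk1, Trpm5 and Pou2f3 were too dim, and Gfi1b, Alox5ap and Avil were tested. Neither Col1a1 nor these 3 genes passed the test in any contrast.

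TNFa-treated organoids had between 3.76 and 5.45 times less Gsdmc2, Gsdmc3 and Gsdmc4 signal than untreated ones, and 1.45 to 1.52 times more Gsdmd, over both genotypes. Gsdmc3 measured 8.86, 8.91, 7.99 and 8.35 log2 on the 4 WT arrays and 6.01, 6.31, 6.21 and 5.78 on the WT + TNFa arrays. In the mutant it measured 8.56, 8.26, 8.40 and 8.38 without TNFa and 6.55, 6.23, 6.55 and 6.26 with it. Every treated array lay below every untreated array. The difference was -2.45 ± 0.17 log2 (SE of the fit, n = 4 against 4; 95% interval -2.80 to -2.09), or 5.45-fold, in WT. It was -2.00 log2 (-2.35 to -1.65), or 4.00-fold, in the mutant.

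Gsdmc4 had 10.38, 10.35, 10.06 and 10.07 log2 in WT and 8.16, 7.79, 8.03 and 7.66 in WT + TNFa. Mutant arrays gave 10.16, 10.05, 9.73 and 9.78 without TNFa and 8.19, 7.46, 8.39 and 8.05 with it. The treated and untreated arrays did not overlap, and all 16 stayed above the array's 40th percentile (6.40 to 6.56 log2), the level used here as the limit of a bright signal. The fall was 4.93-fold in WT, -2.30 ± 0.16 log2 (SE; 95% interval -2.65 to -1.96), and 3.76-fold in the mutant, -1.91 log2 (-2.26 to -1.56). Since Gsdmc4 stayed above that limit throughout, its fold differences do not rest on a dim group.

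Gsdmc2 had 8.02, 8.07, 7.06 and 7.73 log2 in WT and 5.22, 6.13, 5.43 and 5.22 in WT + TNFa. It had 7.77, 7.63, 7.44 and 7.67 in the mutant and 5.91, 5.31, 5.80 and 5.40 in the mutant + TNFa. The groups did not overlap, although WT array 3 was the lowest of its group and WT + TNFa array 2 was the highest of its group. The difference was -2.22 ± 0.22 log2 (SE; 95% interval -2.68 to -1.76), 4.66-fold, in WT and -2.02 log2 (-2.48 to -1.56), 4.06-fold, in the mutant. Gsdmc2 was above the array's 40th percentile on 0 of the 8 treated arrays and Gsdmc3 on 2 of 8, both in the mutant + TNFa, so their fold differences are approximate. Without WT + TNFa array 2, the WT differences were -2.43 log2 for Gsdmc2, -2.53 for Gsdmc3 and -2.26 for Gsdmc4.

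Gsdmd moved the other way. Its WT arrays lay at 10.17, 10.29, 10.25 and 10.20 log2 and its WT + TNFa arrays at 10.69, 10.71, 10.75 and 10.94. The mutant arrays lay at 10.11, 10.11, 9.96 and 9.96, and the mutant + TNFa arrays at 10.60, 10.72, 10.63 and 10.62. Every treated array was above every untreated one, with a much smaller spread than in the gasdermin C genes. The difference was 0.54 ± 0.06 log2 (SE; 95% interval 0.40 to 0.67), 1.45-fold, in WT and 0.61 log2 (0.47 to 0.74), 1.52-fold, in the mutant.

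The TNFa contrasts chose the members, so no test of the members is given for them. Over all genes, 5.75% were lower and 5.03% higher with TNFa in WT (limma, adjusted p under 0.05), and 2.47% lower and 3.51% higher in the mutant. By the size of the estimate, Gsdmc3, Gsdmc4 and Gsdmc2, in that order, had the lowest differences of the 11766 genes in WT, and Gsdmc2, Gsdmc3 and Gsdmc4 in the mutant. These ranks restate the values that chose the members, and Gsdmc2 and Gsdmc3 were dim on all or most treated arrays. In a whole organoid, fewer cells of a type and less RNA per cell cannot be told apart.

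**Figure D1:**
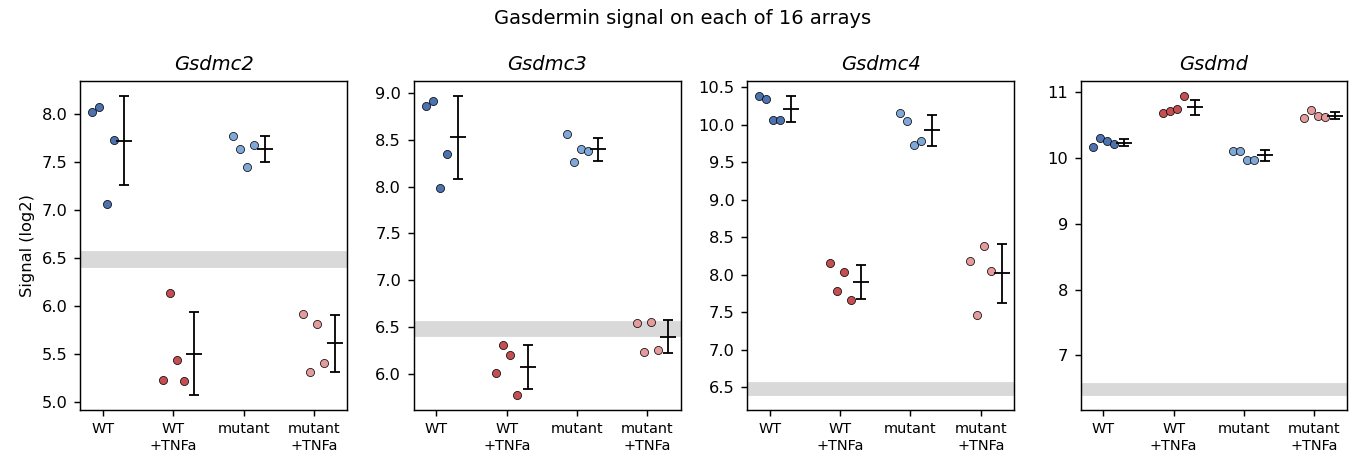
Deposited log2 signal of each member (vertical axis, a separate scale per gene) on the 16 arrays in the 4 groups; each point is 1 array and the bars are the group mean and SD, and shading marks the array's 40th percentile (6.40 to 6.56). The treated arrays lie below the untreated ones for Gsdmc2, Gsdmc3 and Gsdmc4 and above them for Gsdmd, in both genotypes.

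Gasdermin C transcripts are found in the surface epithelium, so markers of surface colonocytes were set beside them. Of 18 such genes, 17 were on the array and all 17 were tested. With TNFa, 4 rose and 2 fell in WT, beside 5.03% and 5.75% of all genes, and 2 rose and 1 fell in the mutant, beside 3.51% and 2.47%, with medians of 0.11 and 0.02 log2 against 0.01 over all genes in each. Guca2b and Guca2a, which encode guanylin peptides, rose by 1.65 and 1.06 log2 in WT (limma, adjusted p = 4.45e-11 and 1.58e-09). Hpgd, which degrades prostaglandins, fell by 1.19 in WT and 1.17 in the mutant (adjusted p = 3.33e-08 and 3.46e-08). The log2 of the summed signal of the 17 genes was 15.52 to 15.64 in WT, 15.67 to 15.76 in WT + TNFa, 15.48 to 15.60 in the mutant and 15.61 to 15.66 in the mutant + TNFa. The sum was higher on every treated array than on any untreated array of the same genotype. Without Guca2a and Guca2b, a choice made after seeing the data, the sum of the other 15 genes overlapped between treated and untreated arrays, at 15.41 to 15.53 in WT, 15.40 to 15.49 in WT + TNFa, 15.37 to 15.49 in the mutant and 15.37 to 15.41 in the mutant + TNFa. The mean log2 signal of all 17 genes also overlapped, at 11.01 to 11.17, 11.16 to 11.28, 10.85 to 11.11 and 11.04 to 11.13 in that order. Between genotypes, 1 of the 17 was higher and 2 lower in the mutant without TNFa, beside 1.00% and 1.48% of all genes. Under TNFa 1 was higher and 3 lower, beside 1.56% and 1.13%. Emp1 was at -0.48 log2 without TNFa and -0.69 under it, and Hpgd at 0.37 and 0.39. Some of the other calls were lost when single arrays were left out, as was that of Hpgd without TNFa. The part of surface colonocytes in the gasdermin differences was not tested.

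Genes listed as markers of Paneth cells also moved with the groups. The 4 of these genes on the array summed to 10.37 to 11.15 log2 in WT, 11.21 to 11.51 in WT + TNFa, 10.90 to 11.30 in the mutant and 11.89 to 12.20 in the mutant + TNFa. The 5 enteroendocrine genes summed to 11.82 to 11.94, 11.60 to 11.75, 11.86 to 12.05 and 12.08 to 12.30 in the same order. The 6 goblet cell genes summed to 14.62 to 14.66, 14.49 to 14.58, 14.54 to 14.60 and 14.51 to 14.55 in that order. For the 4 stem cell genes the sums were 9.31 to 9.59, 9.43 to 9.60, 9.64 to 9.85 and 9.70 to 9.91. With TNFa, 1 of 4 Paneth genes rose and 1 fell in WT and 2 rose in the mutant, and 1 of 5 enteroendocrine genes rose and 2 fell in WT and 2 rose in the mutant. Over all genes, 5.03% rose and 5.75% fell in WT, and 3.51% rose and 2.47% fell in the mutant. In the mutant under TNFa 4 of 4 Paneth genes and 4 of 5 enteroendocrine genes were higher than in WT under TNFa, where 1.56% of all genes were. Of these calls, Ang4 (limma, adjusted p = 0.04997) was lost when any 1 of 12 arrays was left out, Mmp7 (0.0437) with any 1 of 10, and Chga (0.0160) without mutant + TNFa array 2 or 3. Whether the listed Paneth genes mark Paneth cells in these colon organoids was not tested. The part of any of these cell types in the gasdermin differences was not tested either.

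The 3 gasdermin C members shared more than the mean response. In WT, arrays 1 and 2 were above arrays 3 and 4 for Gsdmc2, Gsdmc3 and Gsdmc4, and in the mutant + TNFa arrays 1 and 3 were above arrays 2 and 4 for all of them. Mutant array 1 was the highest of its group for each. In WT + TNFa array 4 was the lowest of its group for all of them. After each profile was centred on its mean over the 16 arrays, the root mean square distance was 0.182 log2 between Gsdmc2 and Gsdmc3, 0.253 between Gsdmc3 and Gsdmc4 and 0.309 between Gsdmc2 and Gsdmc4. The distances to Gsdmd were 1.37 to 1.43. All these distances include the TNFa difference, which chose the members, so they are a description and not a test. These genes are close copies, and how far their probe sets detect one another's transcripts was not tested.

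Among the other genes tested, the nearest profiles to Gsdmc2 were those of Trim30e-ps1 at 0.498 log2, Akr1c14 at 0.561 and Slc39a5 at 0.565. The same 3 genes were nearest to Gsdmc3, with Slc39a5 at 0.536, Trim30e-ps1 at 0.538 and Akr1c14 at 0.557. Gsdmc4 was nearest to Akr1c14 at 0.453, Slc39a5 at 0.471 and Otc at 0.511. Akr1c14 encodes an aldo-keto reductase, Slc39a5 a zinc transporter and Otc a urea cycle enzyme. All of these are farther from the members than the members are from one another, an order that the choice of members by their TNFa difference favours. For Gsdmd, whose own centred profile had a root mean square of 0.306 log2, the nearest were Lrrc8b at 0.0721, Rnf14 at 0.0780 and Cd14 at 0.0988.

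Whether the ATF2/ATF7 mutation alters gasdermin expression was asked by the genotype differences, which did not choose the members. None of the 4 genes differed between mutant and WT by limma at an adjusted p under 0.05, either without or with TNFa. Over all genes, 1.00% were higher and 1.48% lower in the mutant without TNFa, and 1.56% higher and 1.13% lower under TNFa. Gsdmd came nearest. Its mutant arrays lay at 9.96 to 10.11 log2 and its WT arrays at 10.17 to 10.29. The difference was -0.19 ± 0.06 log2 (SE; 95% interval -0.33 to -0.06), with an adjusted p = 0.151 by limma over the 11766 genes. How many of all genes have groups that separate in this way was not counted. At an unadjusted p under 0.05 by limma there were 1570 genes in this contrast.

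Gsdmc2 was at 7.63 ± 0.14 log2 in the mutant and 7.72 ± 0.46 in WT (SD, n = 4), a difference of -0.09 with a 95% interval of -0.55 to 0.37 (limma, adjusted p = 0.917). Gsdmc3 differed by -0.13 (-0.48 to 0.23, adjusted p = 0.822) and Gsdmc4 by -0.28 (-0.63 to 0.06, adjusted p = 0.501). The arrays of both genotypes overlapped for all 3. The intervals allow a lower level in the mutant by up to 0.63 log2 for Gsdmc4, so a shift within them is not excluded. Under TNFa the differences were 0.11 for Gsdmc2 (-0.35 to 0.57, adjusted p = 0.883), 0.32 for Gsdmc3 (-0.03 to 0.67, 0.421), 0.11 for Gsdmc4 (-0.24 to 0.46, 0.834) and -0.13 for Gsdmd (-0.26 to 0.01, 0.399). The groups overlapped for all 4 genes. Gsdmc2 and Gsdmc3 were dim on all or most treated arrays, so for them this comparison says little about whether the genotypes differ under TNFa. Without WT + TNFa array 2 the Gsdmc2 difference was 0.32.

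The TNFa difference was also compared between genotypes. It was 0.20 log2 less negative in the mutant for Gsdmc2 (95% interval -0.45 to 0.85), 0.45 for Gsdmc3 (-0.05 to 0.95) and 0.39 for Gsdmc4 (-0.10 to 0.88), and for Gsdmd it was 0.07 larger (-0.13 to 0.26). Leaving out each array in turn moved these values over 0.08 to 0.42, 0.32 to 0.63, 0.27 to 0.58 and 0.04 to 0.12, and without WT + TNFa array 2 that of Gsdmc2 was 0.41. The adjusted p-values by limma were 0.920, 0.738, 0.777 and 0.908, and 0.00850% of all genes, 1 gene, passed. At an unadjusted p under 0.05 there were 855. The interval of every member includes 0, which does not show that the genotypes respond alike. Gsdmc2 and Gsdmc3 were dim on all or most treated arrays, so for them this comparison is approximate. The WT and mutant TNFa differences, which chose the members, are both part of this contrast.

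**Figure D2:**
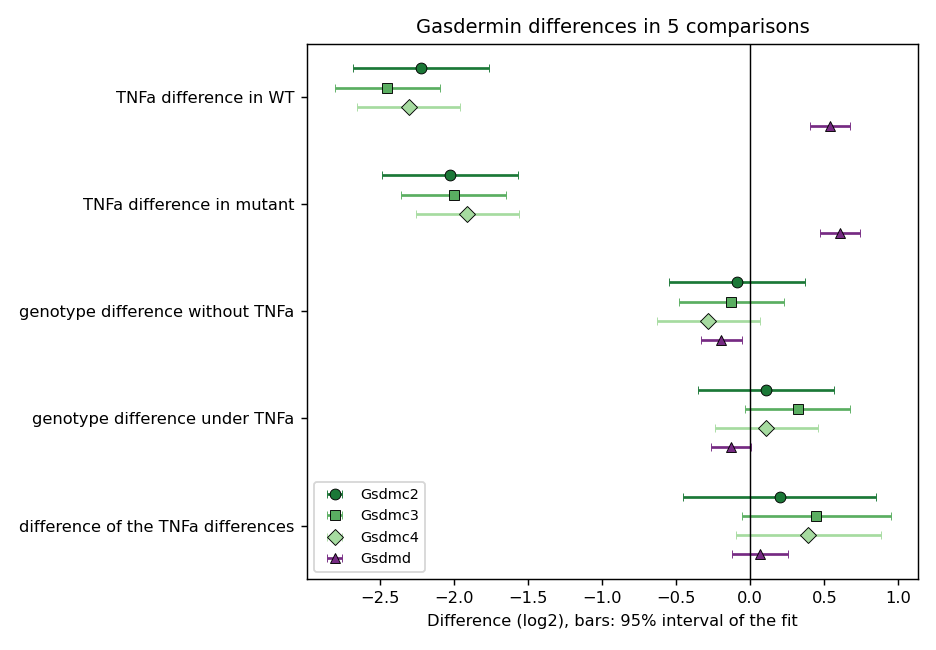
Estimated log2 difference (horizontal axis) of each member in the 5 contrasts, with bars for the 95% interval of the limma fit; positive values are higher with TNFa, or higher in the mutant. The TNFa differences of Gsdmc2, Gsdmc3 and Gsdmc4 lie between -2.45 and -1.91, while the genotype differences lie between -0.28 and 0.32.

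The rest of the family was described in the same way. Gsdmc, the remaining protein-coding gene of the cluster and no member of the 4, was dim on all 16 arrays. It had 6.05, 6.22, 5.29 and 5.50 log2 in WT, 3.77, 3.51, 3.64 and 3.91 in WT + TNFa, 5.38, 5.14, 5.21 and 4.75 in the mutant and 3.75, 3.25, 3.97 and 3.51 in the mutant + TNFa. Its treated arrays all lay below its untreated ones. In the fit without a filter on dim genes it was lower with TNFa by -2.06 log2 in WT (limma, adjusted p = 2.72e-06) and 2.82-fold in the mutant (adjusted p = 1.22e-04), and these calls held whichever single array was dropped (highest adjusted p 2.32e-05 and 8.01e-04). At these signals the size of the fold is not reliable. The orders of arrays given above for WT, the mutant and the mutant + TNFa held for Gsdmc as well, while WT + TNFa array 4, the lowest for the members, was the highest for Gsdmc.

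Of the other gasdermins, Gsdma and Gsdma2 were bright enough to test and did not pass it in any contrast, with TNFa differences of 0.05 and 0.04 log2 in WT and 0.18 and 0.05 in the mutant. Gsdma3, Gsdme and Pjvk were dim and none was called in the fit without a filter. Gsdmcl1 and Gsdmcl2, gasdermin C-like sequences that lie between the members and were added after their values were seen, were also dim and differed with TNFa by 0.12 and -0.19 log2 in WT and by 0.00 and -0.04 in the mutant. Of the 4 protein-coding gasdermin C genes, Gsdmc2, Gsdmc3 and Gsdmc4 were chosen for their difference with TNFa. Gsdmc was not, and it was lower with TNFa at dim signals. How far its probe set detects transcripts of the members was not tested. The like sequences between them gave small differences at dim signals.

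**Figure D3:**
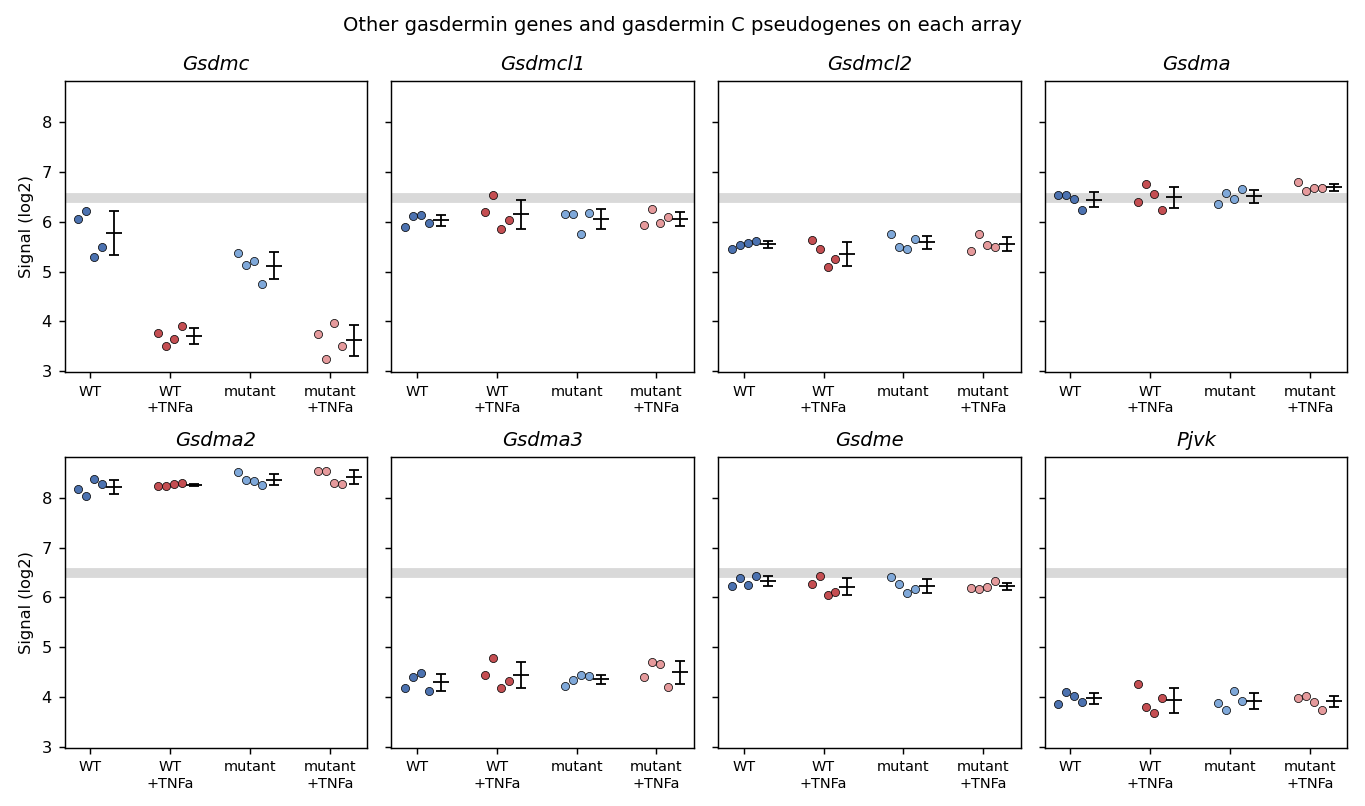
Log2 signal (vertical axis, shared) of 8 gasdermin genes and like sequences outside the 4 members on the 16 arrays in the 4 groups; each point is 1 array, the bars are the group mean and SD, and shading marks the array's 40th percentile (6.40 to 6.56). The treated arrays lie below the untreated ones for Gsdmc, at dim signals, while in the other panels treated and untreated arrays lie close together.

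Genes beside the gasdermin loci were taken from the order of the RefSeq gene table. Cyrib follows Gsdmc4 and its pseudogene. Of 8 neighbours of the cluster, 7 were tested and 1 was called with TNFa, in WT, where 5.03% of all genes were higher and 5.75% lower. With so few genes this count is no result about the locus. Cyrib differed by 0.03 log2 in WT and 0.08 in the mutant, Asap1 by 0.07 and 0.03, and Myc by -0.02 and -0.00, none past the test. Adcy8, an adenylyl cyclase, was lower with TNFa in WT by -0.65 log2 (limma, adjusted p = 0.0251), a call lost when any 1 of 5 arrays (WT 1, 3 or 4, WT + TNFa 2 or 4) was left out, with adjusted p up to 0.0677. It was -0.45 in the mutant (adjusted p = 0.197). Adcy8 differed by genotype, by 1.24 log2 without TNFa and 1.44 under it (adjusted p = 4.97e-04 and 1.38e-04), unlike the gasdermin C genes, for which no genotype difference passed the test; the difference between these genes was not tested.

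Of 8 neighbours of Gsdmd, 5 were tested and 1 was called with TNFa, in WT, where 5.03% of all genes were higher and 5.75% lower. This count, too, is no result about the locus. Naprt, an enzyme of NAD synthesis, fell by 0.41 log2 in WT (limma, adjusted p = 0.0154). It was -0.24 in the mutant (adjusted p = 0.261). Naprt was higher in the mutant than in WT by 0.42 without TNFa (adjusted p = 0.0400, lost when any 1 of 9 arrays was left out) and by 0.59 under it (adjusted p = 0.00344). Top1mt differed by 0.17 in WT and 0.30 in the mutant (adjusted p = 0.432 and 0.179), Zc3h3 by 0.06 and 0.13, Eef1d by 0.07 and -0.01 and Tigd5 by -0.16 and -0.07, none past the test.

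Genes that act before and after gasdermins were taken from 6 lists of 70 genes, of which 61 were on the array and 50 were tested. With TNFa, 9 rose and 7 fell in WT, which is 18% and 14% of those tested beside 5.03% and 5.75% over all genes. In the mutant 7 rose and 1 fell, 14% and 2% beside 3.51% and 2.47%. The medians over the 50 genes were 0.02 and 0.05 log2, beside 0.01 over all genes. The lists were chosen with earlier results of these data known, so the shares describe the lists and are not a test.

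Among 5 tested proteases that can cut gasdermins, Casp4 rose 1.78-fold in WT, by 0.83 ± 0.09 log2 (SE; limma, adjusted p = 4.87e-06), and 1.73-fold in the mutant, by 0.79 (adjusted p = 1.08e-05). Its signal ran from 9.32 to 9.44 log2 in WT and from 9.99 to 10.40 in WT + TNFa, and from 9.37 to 9.69 and 10.20 to 10.44 in the mutant. Casp1, which cuts the same protein, was at 11.26 ± 0.07 log2 in WT and 11.25 ± 0.16 in WT + TNFa (SD, n = 4) and did not pass the test in either genotype. Casp8, an initiator caspase that can also act on gasdermins, rose by 0.21 in the mutant (adjusted p = 0.0405), a call lost when any 1 of 8 arrays was left out (adjusted p up to 0.128), and in WT it was 0.17 (adjusted p = 0.0633). Ctsg and Gzmb, of immune cells, were dim. Elane, another of the immune-cell proteases, was bright enough to test, with group means of 6.69 to 6.85 log2, and did not pass in any contrast.

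Of 10 inflammasome genes tested, 1 rose and 4 fell in WT, with a median of -0.10 log2, and 1 rose and 0 fell in the mutant, with a median of 0.06. Over all genes, 5.03% rose and 5.75% fell in WT, and 3.51% rose and 2.47% fell in the mutant. Nlrp6, a sensor of intestinal epithelium, fell by 0.47 in WT (limma, adjusted p = 2.22e-04). In the mutant it was -0.15 (adjusted p = 0.300), and the difference between genotypes, 0.32, did not pass the test (adjusted p = 0.444). Nlrp1b fell by 0.56 in WT (adjusted p = 0.00635) and was -0.22 in the mutant, also with no difference between genotypes that passed (0.34, adjusted p = 0.728). Pycard, the adaptor that joins sensors to caspase-1, fell by 0.21 in WT (adjusted p = 0.0176, up to 0.117 with no filter or with only the groups compared) and was -0.17 in the mutant (adjusted p = 0.0707). Naip5, a flagellin receptor, fell by 0.24 in WT (adjusted p = 0.0396), a call lost when any 1 of 8 arrays was left out. Its mutant group means were 9.81 log2 without TNFa and 9.58 with it, which did not pass the test. Nek7, which supports NLRP3, rose by 0.48 in WT (adjusted p = 0.00211) and by 0.33 in the mutant (adjusted p = 0.0421), the latter lost when any 1 of 10 arrays was left out (up to 0.149).

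Of the listed cytokines and alarmins linked to release through gasdermin pores, with antagonists of these cytokines, 6 were tested. Il1a rose by 1.86 log2 in WT (limma, adjusted p = 2.05e-07), from a dim 5.94 ± 0.20 to 7.80 ± 0.33 (SD, n = 4), and by 2.80 in the mutant (adjusted p = 1.32e-09). Il18, a member of the IL-1 family, fell by 0.34 in the mutant (adjusted p = 0.00301) and by 0.22 in WT (adjusted p = 0.0408, lost when any 1 of 9 arrays was left out, up to 0.160). Il1b was dim. Il1rn, the receptor antagonist, rose by 0.30 in WT (adjusted p = 0.0176, lost without WT + TNFa array 3 or 4) and was 0.22 in the mutant (adjusted p = 0.114). Among 13 tested genes of membrane rupture and repair, Ninj1, which breaks the membrane after pores form, rose by 0.32 in WT (adjusted p = 0.00289) and 0.27 in the mutant (adjusted p = 0.0148; lost without mutant array 2 or mutant + TNFa array 3 or 4, up to 0.0619). The repair genes of the ESCRT machinery did not share a direction: Chmp2b rose by 0.29 in WT (adjusted p = 0.0183, lost without WT array 1) and Chmp4c fell by 0.19 (adjusted p = 0.0256, lost when any 1 of 4 arrays was left out). In the mutant Chmp2b was 0.24 (limma, adjusted p = 0.0793) and Chmp4c -0.01 (adjusted p = 0.977).

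The route known to raise the gasdermin C genes was represented by 12 genes of IL-4 and IL-13 signalling on the array, of which 7 were tested. With TNFa, 1 rose and 0 fell in each genotype, beside 5.03% and 5.75% of all genes in WT and 3.51% and 2.47% in the mutant. Il4ra, the receptor chain shared by both cytokines, rose by 0.40 log2 in WT and 0.46 in the mutant (limma, adjusted p = 5.44e-04 and 1.90e-04). Stat6 was at 10.19 ± 0.08 log2 in WT and 10.25 ± 0.18 in WT + TNFa (SD, n = 4) and did not pass in either genotype. Il4, Il25, Il13ra2, Socs1 and Retnlb were dim. Il13 was bright enough to test, with group means of 7.56 to 7.60 log2, and did not pass in any contrast. Signalling through this route was not measured.

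Of 9 regulators of the IRF, STAT and NF-kB families, 2 rose and 1 fell in WT, beside 5.03% and 5.75% of all genes. In the mutant 1 rose, beside 3.51%. Irf1, which drives interferon-type transcription, rose by 0.65 log2 in WT and 0.62 in the mutant (limma, adjusted p = 4.92e-06 and 8.77e-06). Irf2, known as a regulator of Gsdmd, was -0.01 in WT and 0.10 in the mutant and did not pass. Irf7 rose by 0.46 in WT (adjusted p = 0.0466, lost when any 1 of 10 arrays was left out), and Irf8 fell by 0.34 (adjusted p = 0.0120, or 0.0804 with only the groups compared). In the mutant Irf7 was 0.32 (limma, adjusted p = 0.269). The mutant group means of Irf8 were 8.35 log2 without TNFa and 8.17 with it, which did not pass.

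Between genotypes, 0 of the 50 pathway genes were higher and 3 lower in the mutant without TNFa, a share of 6% beside 1.48% over all genes. This share, too, describes lists chosen with earlier results known and is not a test. Pycard was lower by -0.28 log2 (limma, adjusted p = 0.00642), with mutant arrays at 11.08 to 11.14 and WT arrays at 11.36 to 11.41. Il4ra was lower by -0.33 (adjusted p = 0.00952), and Il13ra1 by -0.22 (adjusted p = 0.0443, lost when any 1 of 13 arrays was left out). Under TNFa, Pycard (-0.24, adjusted p = 0.0178) and Il4ra (-0.26, adjusted p = 0.0387) were lower and Il1a was higher (0.65, adjusted p = 0.0203). Each of these calls under TNFa was lost when single arrays were left out, any 1 of 4 for Pycard, 8 for Il4ra and 4 for Il1a, with adjusted p up to 0.115, 0.118 and 0.0662. The difference of the TNFa differences passed for 0 of the 50 genes by limma, with 5 at an unadjusted p under 0.05.

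**Figure D4:**
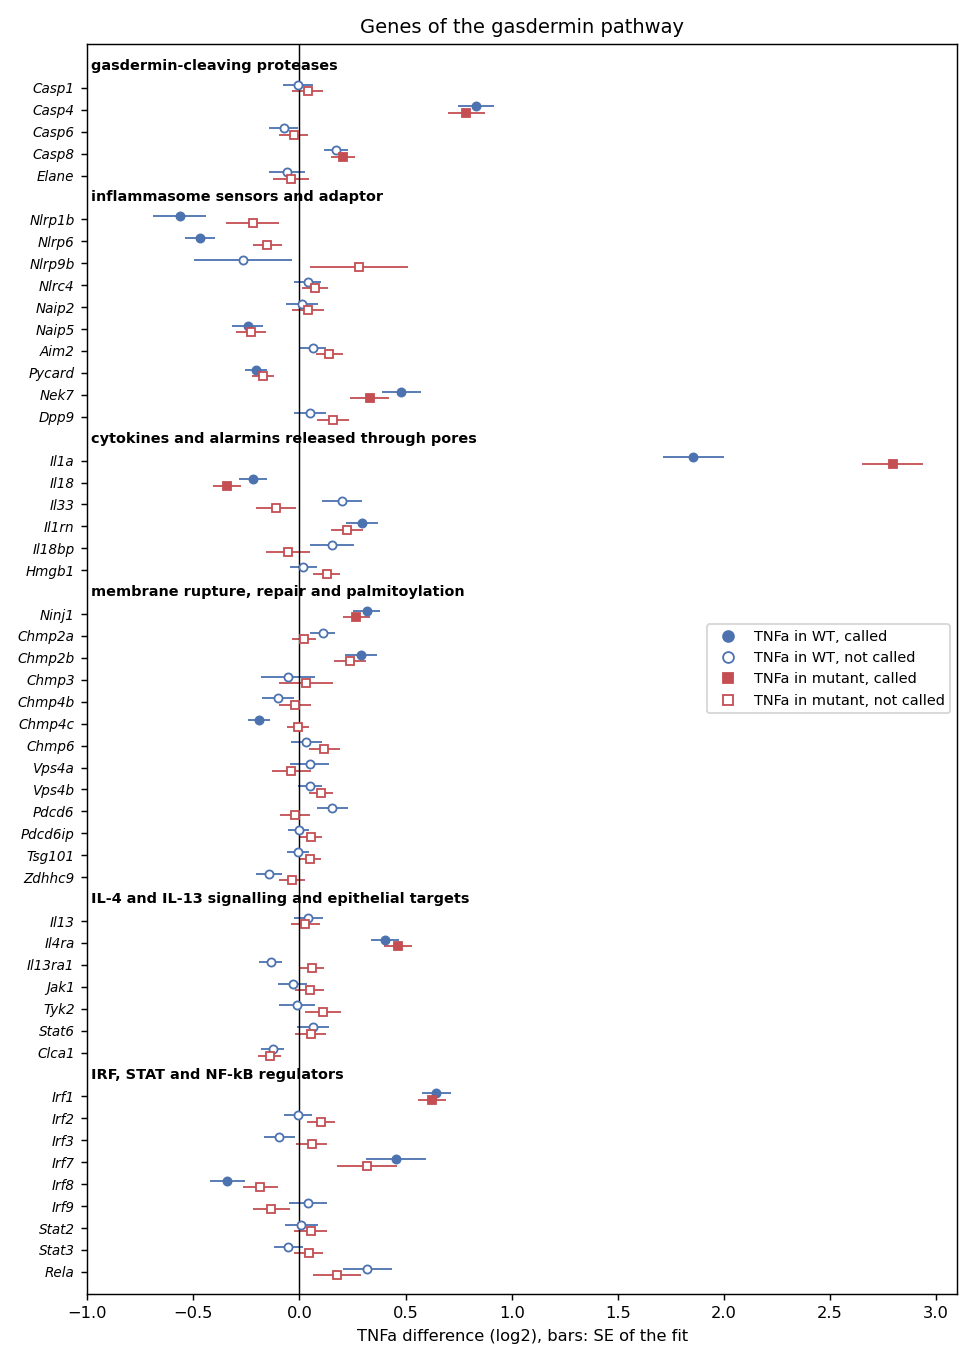
Log2 difference with TNFa (horizontal axis; bars are the SE of the limma fit) of the tested genes of 6 pathway lists, in WT (circles) and in the mutant (squares), with filled symbols where the adjusted p was under 0.05. Il1a lies farthest to the right, at 1.86 and 2.80, Casp4 and Irf1 lie between 0.62 and 0.83 in both genotypes, and Nlrp1b and Nlrp6 lie lowest in WT, at -0.56 and -0.47.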

How the data were processed

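RNA of 16 colon organoid samples was measured on single-colour Affymetrix arrays. The deposited values are log2 signals, which the authors computed with RMA in Affymetrix Expression Console, per the submitters' processing notes; no version, array design or genome build is given in the sources used here. Of 19825 probe sets, 18851 carried 1 symbol in the platform annotation, giving 18850 genes; a gene with more than 1 probe set was represented by the brightest, and each member has 1. Genes above the array's 40th percentile on at least 4 of the 16 arrays were tested (11766), with no further normalization. Contrasts of group means came from 1 fit in limma 3.58.1 (R 4.3.3) to all 16 arrays, with moderated tests and Benjamini-Hochberg adjustment over all genes tested; adjusted p under 0.05 was called. The code was tested on simulated data. Members, lists and tests were chosen with earlier results of these data known. Named genes were the members, listed genes called in a contrast (up to 6 a list by smallest p) or dim, the 3 nearest profiles and 4 neighbours on each side. Alternatives were other filters, probe set rules, normalizations, variance models, array weights, the replicate block and leaving out each array. The number of arrays limits precision.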

Additional observations from a re-analysis of the deposited data

How the results depend on the processing

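Of the members' results under each alternative, 512 kept their direction and, where tested, their side of the threshold. The other 4 turned the sign of a difference near 0 when 1 array was left out. Leaving out each array in turn, the genotype difference without TNFa ran from -0.31 to 0.03 log2 for Gsdmc2 (0.01 without WT 1 and 0.0265 without WT 2) and from -0.31 to 0.00 for Gsdmc3, where it was 0.00258 without WT 2, and that under TNFa from -0.01 to 0.30 for Gsdmc4 (-0.0134 without mutant + TNFa 3). None passed the test. For Gsdmd without TNFa it ran from -0.22 to -0.17, with adjusted p from 0.0727 to 0.347 over all alternatives. The TNFa differences ran from -2.63 to -1.72 for the gasdermin C genes and from 0.48 to 0.63 for Gsdmd.

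The number of genes called with TNFa in WT was 1269, and 720 with only the groups compared in the fit; in the mutant it was 704, and 1095 with array weights. Between genotypes it was 292 without TNFa, and 443 with array weights; under TNFa it was 317, and 617 with array weights, 185 with only the groups compared, and 192 and 198 without mutant + TNFa 1 and 4. For the difference of the TNFa differences it was 1, and 3 with the 60th percentile filter, 5 with trend and robust fitting, 3 with array weights, and 0 to 4 with an array left out. The percentages over all genes move accordingly.

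With the replicate block, the number in the titles as a term of the fit, the difference of differences was called for 0 genes, no member's call changed, and Gsdmd without TNFa stayed at -0.19 with adjusted p = 0.232. The numbers were not taken as pairs: deviations of same-numbered arrays correlated with a median r of -0.08, and 5 of 24 pairs were above 0.1, beside 17 of 72 with different numbers. The pathway, surface colonocyte, neighbour, Paneth and enteroendocrine genes were run under the same settings after their calls had been seen. Gsdmc2 and Gsdmc3 under TNFa, and Gsdmc everywhere, were near the lower end of the signal range, which limits their folds.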
